A study of Homo sapiens with 38 samples.

Results

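Abcam-ab177178 is one of the H3K27ac antibodies with which CUT&Tag was run in K562, a human chronic myeloid leukemia line with erythroid character. The question was which regions this antibody called that the Abcam-ab4729 and Diagenode antibodies did not, and the reverse, when all libraries had been downsampled to a shared read depth. The comparison used 12 of the 38 libraries of the series, 4 of ab177178 (dilution 1:100), 4 of ab4729 (1:100) and 4 of Diagenode (1:50). Each antibody had 1 library in each of 4 conditions, namely 11 or 13 PCR cycles combined with SDS-based or column-based DNA extraction. All 12 came from untreated cells of 1 line, and nothing in the labels says that they came from separate cultures. Peaks had been called with SEACR in each library on its own, after removal of duplicates, and an equal number of reads does not make the number of unique fragments equal.

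Merging the 12 peak lists wherever peaks overlapped by at least 1 bp gave 21109 regions. Of these, 341 (1.62%) had a peak in at least 3 of the 4 ab177178 libraries and in none of the 8 others, and are called regions of ab177178 alone. In the other direction, 513 (2.43%) had a peak in at least 3 of the 8 other libraries and in none of the 4 ab177178 libraries, and are called regions of the other antibodies alone. A further 3752 regions were held by at least 3 libraries on each side. These counts follow from the rule and carry no test.

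H3K27ac is acetylation of lysine at position 27 of histone H3, a mark of active promoters and enhancers. The same residue carries H3K27me3, placed by Polycomb repressive complex and found on silent developmental genes and other inactive chromatin, so one lysine cannot bear both marks. In CUT&Tag an antibody tethers the Tn5 transposase, which cuts and tags the DNA around the antibody, and a SEACR peak is a stretch of fragment coverage among the strongest of its library. Each peak has a total signal, the coverage summed over its bases, and a maximum coverage in fragments.

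The sequences at the strongest regions of each kind are shown for their base composition and repeats, which the rule did not use. Each is the GRCh37 plus strand over 300 bp centred on the stretch of maximum coverage in the library of highest signal, with CpG dinucleotides in capitals. The first 4 belong to regions of ab177178 alone, ranked by the number of libraries and then by mean total signal, and the last 4 to regions of the other antibodies alone.
IGLC2, chr22:23242866-23243165: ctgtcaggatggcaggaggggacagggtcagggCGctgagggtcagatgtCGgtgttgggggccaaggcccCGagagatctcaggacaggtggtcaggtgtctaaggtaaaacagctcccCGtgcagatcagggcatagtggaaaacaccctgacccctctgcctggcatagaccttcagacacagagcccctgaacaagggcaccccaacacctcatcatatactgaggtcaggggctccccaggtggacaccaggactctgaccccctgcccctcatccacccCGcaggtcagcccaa
TP53TG3B, chr16:33348802-33349101: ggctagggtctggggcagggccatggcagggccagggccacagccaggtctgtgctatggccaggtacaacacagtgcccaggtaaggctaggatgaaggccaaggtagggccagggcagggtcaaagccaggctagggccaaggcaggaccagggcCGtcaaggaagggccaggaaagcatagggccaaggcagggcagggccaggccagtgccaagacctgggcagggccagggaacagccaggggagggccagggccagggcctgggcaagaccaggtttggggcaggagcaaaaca
TP53TG3B, chr16:33312107-33312406: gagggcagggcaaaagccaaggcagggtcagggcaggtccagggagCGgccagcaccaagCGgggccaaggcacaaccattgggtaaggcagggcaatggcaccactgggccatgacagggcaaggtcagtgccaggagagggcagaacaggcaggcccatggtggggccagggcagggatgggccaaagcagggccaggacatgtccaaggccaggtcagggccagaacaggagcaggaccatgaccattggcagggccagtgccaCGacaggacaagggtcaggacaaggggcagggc
BCR, chr22:23534406-23534705: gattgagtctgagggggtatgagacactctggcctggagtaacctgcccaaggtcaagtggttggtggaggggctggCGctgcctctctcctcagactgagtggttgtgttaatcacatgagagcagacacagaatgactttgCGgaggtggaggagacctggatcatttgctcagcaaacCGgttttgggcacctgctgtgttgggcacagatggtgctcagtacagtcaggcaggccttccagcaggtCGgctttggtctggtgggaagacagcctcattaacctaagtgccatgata
ENSG00000289222, chr16:2955679-2955978: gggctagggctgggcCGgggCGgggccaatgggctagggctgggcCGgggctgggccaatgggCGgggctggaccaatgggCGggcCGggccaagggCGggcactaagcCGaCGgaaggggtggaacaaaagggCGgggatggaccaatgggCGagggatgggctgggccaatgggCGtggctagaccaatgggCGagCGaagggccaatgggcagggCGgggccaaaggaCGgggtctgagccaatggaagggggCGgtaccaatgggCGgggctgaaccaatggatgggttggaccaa
TMEM143, chr19:48867334-48867633: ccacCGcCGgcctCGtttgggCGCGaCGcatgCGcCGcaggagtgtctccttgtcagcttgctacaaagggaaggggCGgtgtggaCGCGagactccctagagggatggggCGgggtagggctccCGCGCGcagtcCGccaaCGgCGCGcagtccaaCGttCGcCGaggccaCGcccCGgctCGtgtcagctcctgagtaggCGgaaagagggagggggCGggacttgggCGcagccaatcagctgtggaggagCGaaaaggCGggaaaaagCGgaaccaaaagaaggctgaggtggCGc
SDR42E2, chr16:22202264-22202563: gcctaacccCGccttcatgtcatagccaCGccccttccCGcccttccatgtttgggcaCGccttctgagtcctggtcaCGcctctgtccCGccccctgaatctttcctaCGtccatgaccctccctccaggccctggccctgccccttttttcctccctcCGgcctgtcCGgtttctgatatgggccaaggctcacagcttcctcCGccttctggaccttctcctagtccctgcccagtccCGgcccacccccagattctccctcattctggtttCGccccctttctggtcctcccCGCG
MRM1, chr17:34956998-34957297: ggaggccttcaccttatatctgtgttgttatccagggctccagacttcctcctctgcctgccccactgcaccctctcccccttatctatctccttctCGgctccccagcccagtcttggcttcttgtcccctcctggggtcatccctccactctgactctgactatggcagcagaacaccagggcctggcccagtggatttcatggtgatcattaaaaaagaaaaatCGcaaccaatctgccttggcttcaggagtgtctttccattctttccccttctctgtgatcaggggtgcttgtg
The 4 windows of ab177178 alone held 5, 1, 3 and 4 CpGs, against 18, 32, 14 and 2 in those of the other antibodies alone. Both windows listed under TP53TG3B lie on the short arm of chromosome 16 towards the centromere and hold short runs that recur. Their regions are 86783 and 49487 bp from the start of that gene, the nearest coding start. In the first of these windows AGGGCC occurred 13 times, and in the second CAGGGC occurred 9 times. A repeat also ran through the window at ENSG00000289222, in which CAATGG occurred 10 times. The GATA motif, searched as AGATAA or TGATAA on both strands, was found once, in the window near MRM1. Over all members, this motif lay in the 300 bp window of 21.4% of the regions of ab177178 alone, 8.58% of the regions of the other antibodies alone and 17.4% of all 21109 regions. A second motif, TGANTCA on both strands, which was added after the data had been seen, lay in 15.5%, 5.07% and 9.93% of the same windows. Both motifs were thus about as common in windows of ab177178 alone as in all regions or more so, and less common in windows of the other antibodies alone.

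Most regions that ab177178 called without the other antibodies were seen in 1 of its libraries only. With no peak in the other 8 libraries, 6856 regions were in 1 ab177178 library, 1100 in 2, 272 in 3 and 69 in all 4 (0.327% of all regions). On the other side of the threshold, 291 regions in 3 ab177178 libraries and 90 in all 4 had a peak in exactly 1 of the 8 others. The 2 libraries with 11 cycles contributed 2988 (SDS) and 2429 (column) regions found nowhere else, 30.4% and 29.4% of the regions in those libraries. The 2 libraries with 13 cycles contributed 759 (SDS) and 680 (column), or 10.0% and 8.97%. In the 8 other libraries the number ran from 164 to 409. Regions of the other antibodies alone numbered 253 in 3 libraries, 137 in 4, 81 in 5, 29 in 6, 12 in 7 and 1 in all 8, and 597 more were in 2.

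**Figure D1:**
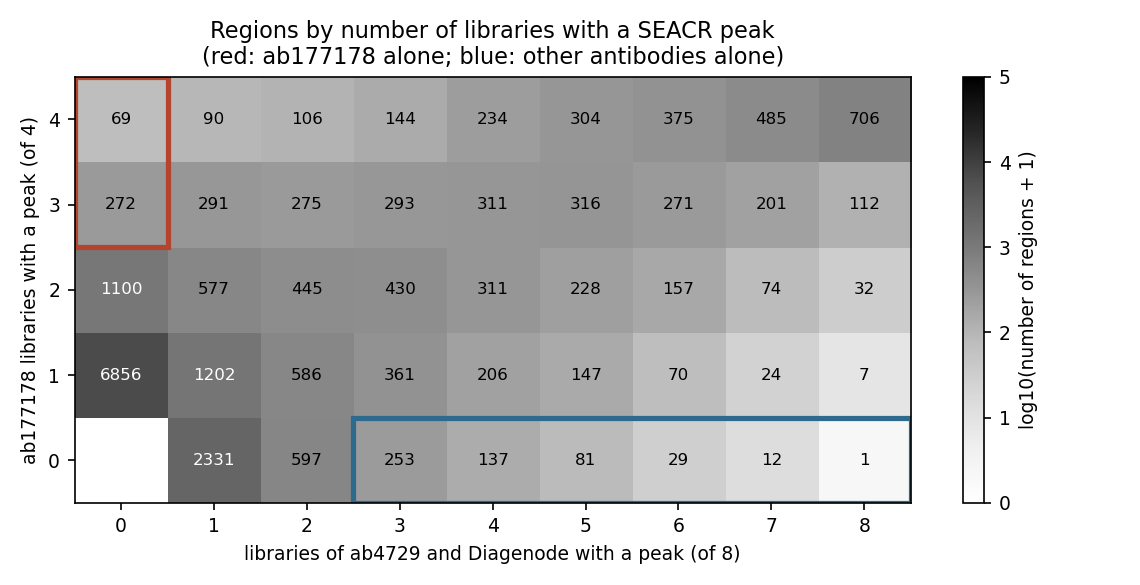
Number of merged regions by how many of the 4 ab177178 libraries (vertical axis) and how many of the 8 ab4729 and Diagenode libraries (horizontal axis) held a peak, shaded by log10 of the number plus 1. The red frame holds the 341 regions of ab177178 alone, and the blue frame the 513 regions of the other antibodies alone, of which 253 were in 3 libraries.

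By a rule that treats the antibodies alike, at least 3 of an antibody's 4 libraries and none of the other 8, ab177178 had 341 regions, ab4729 had 42 (0.199%) and Diagenode had 17 (0.0805%). The 4 ab177178 lists were also the longest, and with each list limited to its 3797 peaks of highest total signal the counts were 91, 44 and 21. With the same limit the regions of the other antibodies alone numbered 766. Of the 513 regions of the other antibodies alone, 454 (88.5%) had peaks of both ab4729 and Diagenode, and 42 (0.199% of all regions) were in at least 6 of the 8 libraries.

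The ab177178 list was the longest of the 3 antibodies within every condition. By the paper's sequencing metrics, taken before downsampling, ab177178 also had the most unique fragments of the 3 in every condition. The number after downsampling was not known here, and its part in list length was not tested. The ab177178 lists held 10821 peaks (11 cycles, SDS), 9140 (11 cycles, column), 8161 (13 cycles, SDS) and 8219 (13 cycles, column), against 3797 to 6984 (median 6033.5) in the 8 other lists, with no overlap. This was 1.66-fold more (adjusted p = 0.0432, two-sided exact permutation over the 81 ways to assign the antibody within conditions, Benjamini-Hochberg over 7 values). The 7 values included the share described next, which had the same unadjusted p of 0.01235 (exact permutation) as peak number. The adjusted p of peak number depends on that tie, and an adjustment without the share was not made. The share of a library's peaks that met no peak of the other 2 antibodies in its own condition was 48.5% ± 9.65 for ab177178 (SD, n = 4) and 24.7% ± 3.22 for the others (SD, n = 8). This share rests on the same presence and absence of peaks as the choice of regions and moves with list length, so it is given as a description, and at equal list length the difference was 5.54 percentage points in place of 23.7. The call on peak number was lost when any of 11 of the 12 libraries was left out, where fewer arrangements remained (adjusted p 0.0648 to 0.173, exact permutation), and kept without the Diagenode library of 13 cycles and column extraction (adjusted p = 0.0324, exact permutation).

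The other 5 library values did not pass the test. Peaks within 1.5 kb of an annotated start site made up 43.1%, 43.5%, 53.2% and 55.4% of the ab177178 lists (11 cycles SDS and column, 13 cycles SDS and column), against 52.3% to 73.3% (median 64.3%) in the others (adjusted p = 0.0576, exact permutation). The share on benchmark H3K27ac, meaning regions called in at least 2 of the 6 untreated 15-cycle benchmark libraries of the 3 antibodies, was 75.9%, 73.5%, 92.7% and 93.3% in ab177178 in the same order, against 88.6% to 98.6% (median 96.6%) in the others (adjusted p = 0.0864, exact permutation). The share on benchmark H3K27me3, meaning regions called in both CST-9733 libraries, was 14.3%, 18.1%, 4.68% and 4.53% in ab177178, against 4.49% to 7.40% (median 5.16%) in the others (adjusted p = 0.101, exact permutation). For both marks the 2 ab177178 libraries with 11 cycles lay outside the range of all 8 others, and the 2 with 13 cycles lay inside it. Covered length averaged 10.6 ± 1.31 Mb in ab177178 (SD, n = 4) and 7.05 ± 2.38 Mb in the others (SD, n = 8), and median peak width 1029 ± 181 bp and 1108 ± 226 bp. Neither passed the exact permutation test (adjusted p = 0.0864 and 0.642). Without the Diagenode library of 13 cycles and column extraction, the shares near a start site and on benchmark H3K27ac did pass (-17.1 and -12.7 percentage points, adjusted p = 0.0324 for both, exact permutation).

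**Figure D2:**
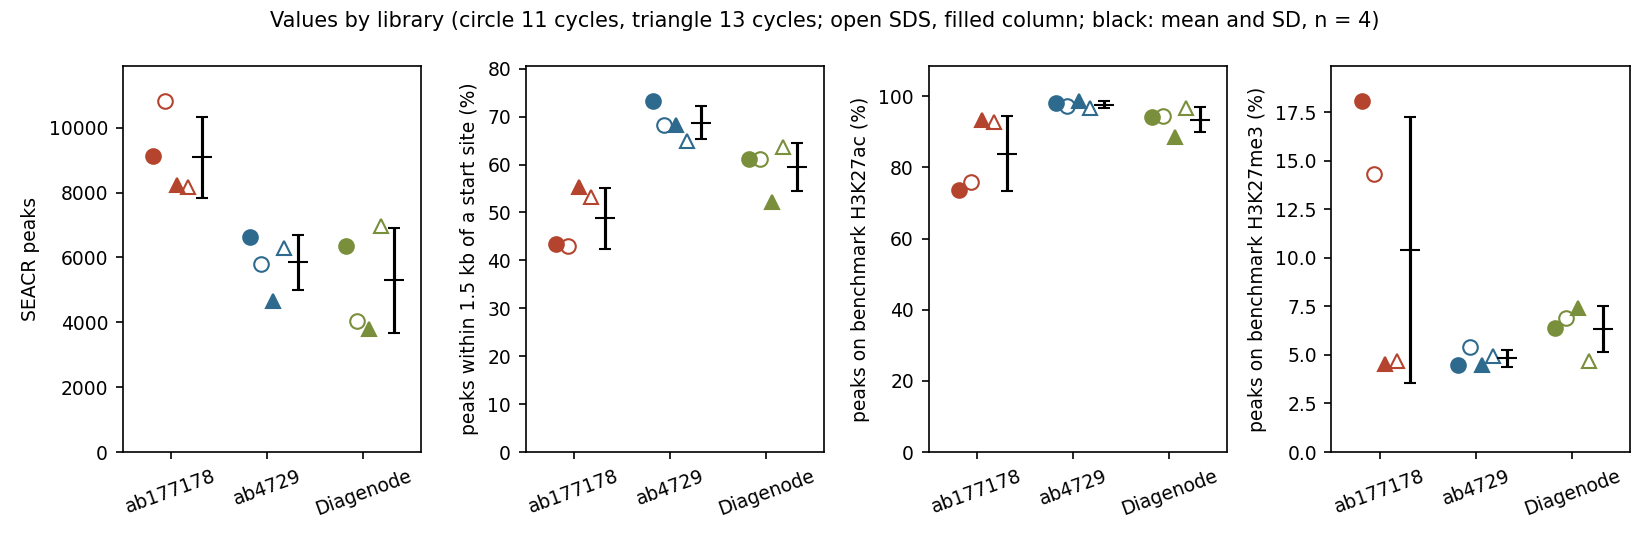
Number of SEACR peaks and share of peaks near a start site, on benchmark H3K27ac and on benchmark H3K27me3 (vertical axes) in each library of the 3 antibodies, with cycles and extraction given by the symbols and the mean and SD (n = 4) in black. The 4 ab177178 libraries held 8161 to 10821 peaks, above all others, and its 11-cycle libraries had 14.3% and 18.1% of peaks on benchmark H3K27me3, against at most 7.40% in the other antibodies.

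Regions of ab177178 alone lay mostly away from promoters, and regions of the other antibodies alone mostly at them. A start site of any gene was within 1.5 kb of 25.8% of the regions of ab177178 alone, 80.9% of those of the other antibodies alone, 68.0% of those held by both and 44.8% of all. For protein-coding starts the shares were 9.68%, 72.1%, 55.6% and 34.3%. These traits ran on past the threshold. With a peak in 1 of the 8 others, 31.3% of regions in 3 ab177178 libraries and 35.6% of those in all 4 were near a start site of any gene. Of regions in 3 of the 8 others and 1 ab177178 library, 73.4% were. The median distance from the middle of a region to the nearest protein-coding start was 43060 bp in regions of ab177178 alone and 406 bp in those of the other antibodies alone, with 12015 bp over all regions. A peak of the other antibodies was within 5 kb of 34.0% of the regions of ab177178 alone, and an ab177178 peak was within 5 kb of 19.7% of the regions of the other antibodies alone. Away from start sites, 41.1% of the regions of ab177178 alone had their middle in an intron, 25.5% between genes and 7.62% in an exon, against 12.1%, 3.70% and 3.31% for the other antibodies alone.

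**Figure D3:**
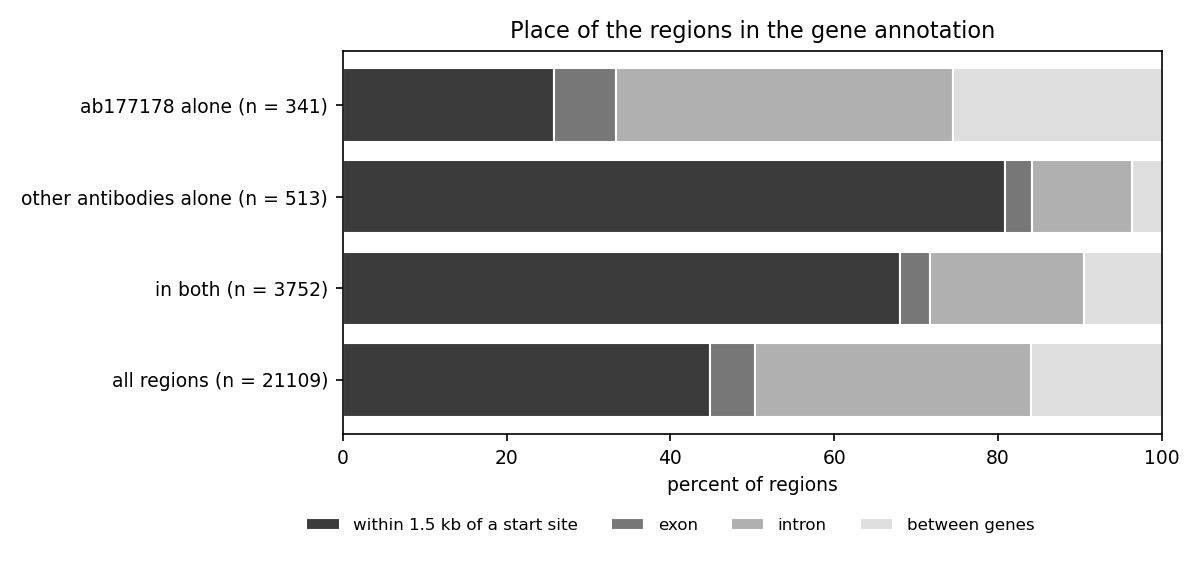
Share of regions (horizontal axis, percent) within 1.5 kb of a start site, or else with the middle in an exon, in an intron or between genes, for each kind of region. Introns and stretches between genes made up 41.1% and 25.5% of the regions of ab177178 alone, while 80.9% of the regions of the other antibodies alone were near a start site.

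Width differed little between the 2 kinds, and base composition differed more. Median width was 1526 bp for regions of ab177178 alone (quartiles 1168 and 2007 bp) and 1661 bp for those of the other antibodies alone (1378 and 2014 bp), with 2507.5 bp for regions held by both and 1244 bp over all. Median GC content was 52.1% in regions of ab177178 alone and 59.2% in those of the other antibodies alone, with 54.3% over all regions. CpGs per 100 bp had medians of 1.41, 5.87 and 2.42 in the same order. Just past the threshold, median GC content was 52.2% in regions of 3 ab177178 libraries and 1 of the 8 others. It was 57.6% in regions of 3 of the 8 others and 1 ab177178 library. The peaks themselves were shallow, with a median maximum coverage of 4 to 6 fragments in the ab177178 libraries and 4 to 8 in the others. Within their own lists, the ab177178 peaks in regions of ab177178 alone had a median total signal at percentile 53.3 and 54.9 with 11 cycles (SDS and column) and 37.1 and 38.6 with 13 cycles. The peaks in regions of the other antibodies alone stood at percentile 29.4 to 41.4, and peaks in regions held by both at 59.5 to 71.3.

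The regions of the 2 kinds were spread differently over the chromosomes. Chromosome 22 held 45 of them (13.2%) against 10 (1.95%) of the regions of the other antibodies alone and 4.76% of all regions, and chromosome 19 held 3 (0.880%) against 78 (15.2%) and 4.98%. Chromosomes 16 and 17, gene-rich like chromosome 19, held 8 (2.35%) and 4 (1.17%) of the regions of ab177178 alone. They held 40 (7.8%) and 42 (8.19%) of the regions of the other antibodies alone, and 3.75% and 3.48% of all regions. Joining regions less than 1 Mb apart, 43 regions of ab177178 alone formed a block at chr22:20213689-23617609 and 14 formed a block at chr9:133718378-134115661. These are the 2 longest runs of regions of ab177178 alone, and they were defined after the data had been seen. They made up 8.22% and 15.1% of all regions within the 2 blocks. The same joining also gave runs for the other antibodies alone, the largest with 24 regions at chr19:47200289-52076091, 15.8% of all regions there. The block on chromosome 22 runs through the immunoglobulin lambda light chain locus into BCR, and the block on chromosome 9 begins within ABL1. BCR and ABL1 are the partners of the fusion gene of chronic myeloid leukemia, which K562 is known to carry in extra copies with DNA around both genes. The copy number of these blocks was not measured here, and its part in the result was not tested.

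**Figure D4:**
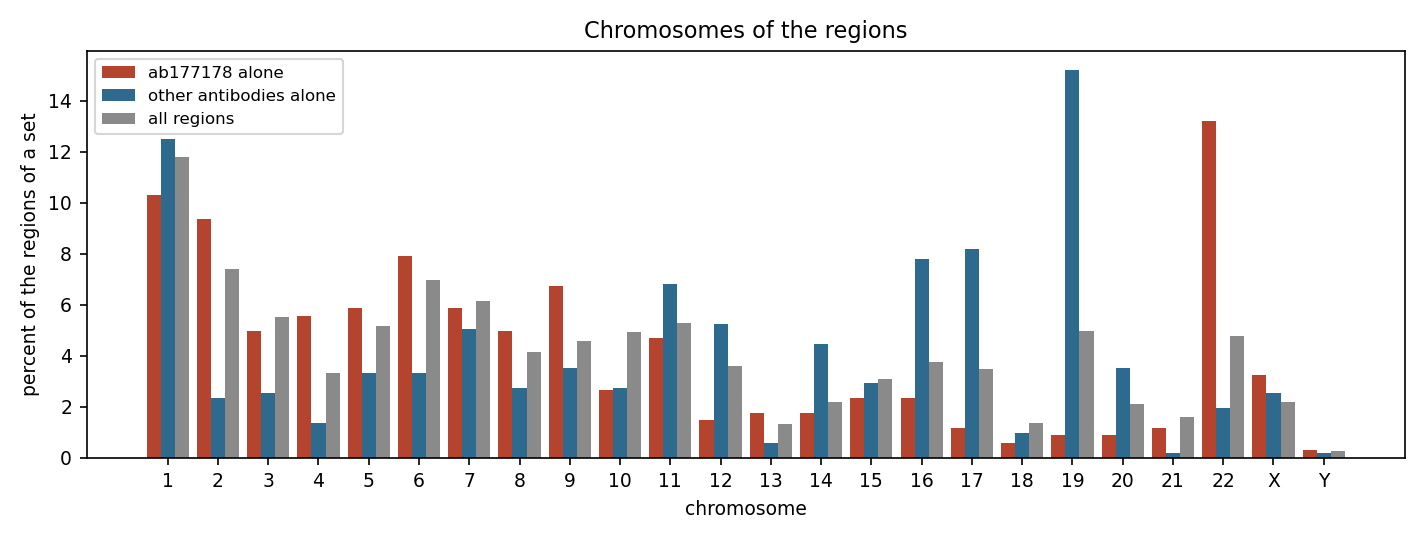
Share of the regions of each kind on each chromosome (vertical axis, percent of the regions of that kind). Chromosome 22 holds 13.2% of the regions of ab177178 alone and 1.95% of those of the other antibodies alone, and chromosome 19 holds 0.880% and 15.2%.

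The 2 blocks held 57 (16.7%) of the regions of ab177178 alone, 3 (0.585%) of those of the other antibodies alone and 2.92% of all regions. Peaks within them made up 4.85% and 5.20% of the ab177178 lists with 11 cycles (SDS and column) and 2.49% and 1.62% with 13 cycles. The 8 others had 0.948% to 1.79%, so that the ab177178 library with 13 cycles and column extraction lay within their range. Of the total signal in peaks, the blocks held 5.81% and 6.21% in ab177178 with 11 cycles and 2.83% and 2.02% with 13 cycles. In the 8 others this share was 1.1% to 3.07%, so that by signal both 13-cycle ab177178 libraries lay within that range. The immunoglobulin lambda segments, chr22:22380474-23265206, held 25 (7.33%) of the regions of ab177178 alone, 0 of those of the other antibodies alone and 0.772% of all regions. Of the 57 regions of ab177178 alone in the blocks, 46 (80.7%) lay on benchmark H3K27me3 and 44 (77.2%) on benchmark H3K27ac. Of all 616 regions in the blocks, 70.1% and 62.5% did so.

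The region of ab177178 alone first in rank, at IGLC2 (chr22:23240950-23245422), an immunoglobulin lambda constant segment, had a total signal of 14988 and 8427 with 11 cycles (SDS and column) and 3300 and 2181 with 13 cycles. The widest, at IGLC7 (chr22:23262038-23268163, 6126 bp), had 12804, 15096 and 10034 in 3 libraries and no peak in that with 13 cycles and column extraction. Both carried H3K27me3 in the 2 benchmark lists and a peak in both benchmark ab177178 lists, 1 of 2 benchmark ab4729 lists and neither Diagenode list. Also among the 15 first in rank were regions beside IGLV3-27, IGLV2-18 and IGLV3-16, variable segments of the same locus, all on benchmark H3K27me3 and, except that at IGLV2-18, on benchmark H3K27ac. Among the 5 widest were also a pair at ENSG00000289120 in this locus, 4660 and 5035 bp wide, both on benchmark H3K27me3 and benchmark H3K27ac.

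The BCR region (chr22:23533611-23536354), in an intron, had a total signal of 6584 and 3400 with 11 cycles (SDS and column) and 5345 and 6778 with 13 cycles. It had a peak in all 6 benchmark H3K27ac lists and none in the H3K27me3 lists. The ABL1 region (chr9:133760478-133764716, 4239 bp, middle in an exon) also had a peak in all 6 and no H3K27me3, with a total signal of 4035, 6288 and 2964 in 3 libraries. BCR is a signalling protein and ABL1 a tyrosine kinase. The regions at IGLC2 and IGLC7 carried both benchmark marks, and these 2 regions of BCR and ABL1 carried benchmark H3K27ac without H3K27me3.

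Outside the blocks, 284 regions of ab177178 alone remained, and 21.5% of them were near a start site. On benchmark H3K27me3 lay 21 (7.39%) of these, against 34 (6.67%) of the 510 regions of the other antibodies alone outside the blocks and 11.4% of all regions there. On benchmark H3K27ac lay 226 (79.6%), against 497 (97.5%) and 72.9%. Among the 15 first in rank were 3 on the short arm of chromosome 16. Their nearest coding starts, TP53TG3B and IGHV3OR16-17, were 49487 to 132447 bp away. A further 1, on chromosome 21, had LIPI as its nearest coding start, 224383 bp away. All 4 lay on both benchmark H3K27me3 and benchmark H3K27ac. There were also a region whose nearest coding start, CWH43, was 227868 bp away, and regions in ZMIZ1-AS1 and at SPRY2. SPRY2, an inhibitor of receptor tyrosine kinase signalling, was the only protein-coding promoter among those 15 (chr13:80913743-80916337), with a total signal of 1742 and 2453 at 11 cycles (SDS and column) and 8776 and 4083 at 13 cycles. Neither H3K27me3 list had a peak there.

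Over all members, 79.2% of the regions of ab177178 alone lay on benchmark H3K27ac, against 97.5% of the regions of the other antibodies alone, 99.1% of those held by both and 72.6% of all. For benchmark H3K27me3 the shares were 19.6%, 7.21%, 5.09% and 13.1%. Both marks together covered 13.2%, 6.63%, 4.69% and 3.42%, and neither covered 14.4%, 1.95%, 0.506% and 17.7%. Chosen within 1 number of cycles, the regions differed in these shares. Regions in both ab177178 libraries of 11 cycles and none of the 4 others numbered 845, or 4.66% of the 18147 regions of those 6 libraries. Of the 845, 34.8% lay on benchmark H3K27me3 and 62.5% on benchmark H3K27ac, beside 14.8% and 73.2% of the 18147. With 13 cycles there were 775 (5.49% of 14116), with 4.90% and 85.4%, beside 5.09% and 88.8%. The blocks held 174 of the 845, beside 616 of the 18147, and 19 of the 775, beside 261 of the 14116.

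Libraries that had no part in choosing the regions gave different shares in the benchmark, first and TSA sets. In the benchmark libraries, amplified with 15 cycles and not downsampled, ab177178 had a peak at 70.1% and 71.8% of the regions of ab177178 alone, ab4729 at 64.8% and 52.8%, and Diagenode at 52.8% and 60.4%. Over all 21109 regions these lists covered 68.7% and 69.5%, 63.0% and 58.0%, and 58.9% and 63.1%. Each list thus held the regions of ab177178 alone about as often as regions in general, both ab177178 lists and 1 of the 2 ab4729 lists slightly more often and the rest less often. A peak in at least 1 of the 4 benchmark libraries of ab4729 and Diagenode was present at 260 (76.2%) of the 341 regions, beside 70.5% of all regions, and a peak in both benchmark ab177178 lists with none in those 4 at 13 (3.81%, beside 2.85% of all regions). The regions of the other antibodies alone had a peak in 96.3% and 97.1% of cases in the benchmark ab177178 libraries, above the 90.3% and 89.1% of ab4729 and the 89.3% and 91.8% of Diagenode. The benchmark ab177178 lists were also the longest, with 15420 and 15614 peaks over 76.52 and 77.65 Mb. Those of ab4729 and Diagenode held 10930 to 14457 peaks over 49.42 to 63.17 Mb.

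Outside the benchmark, the first ab177178 library (15 cycles, SDS) had a peak at 58.7% of the regions of ab177178 alone and 38.6% of those of the other antibodies alone, beside 46.2% of all. The first ab4729 library had 55.1% and 93.4%, beside 61.2%, and the first Diagenode library at 1:50 had 45.2% and 83.6%, beside 55.0%. Trichostatin A (TSA), an inhibitor of histone deacetylases, had been given in 4 libraries, 1 for each antibody and dilution. The TSA library of ab177178 had a peak at 13.2% of the regions of ab177178 alone and 44.6% of those of the other antibodies alone, beside 25.3% of all regions. That of ab4729 had a peak at 83.9% and 39.4%, beside 55.6%, so that of these 2 libraries it was the ab4729 one that held most regions of ab177178 alone. The TSA ab4729 list was the longest H3K27ac list of the series, with 21904 peaks, of which 3.64% lay in the 2 blocks. The 4 Active Motif libraries of 11 and 13 cycles had a peak at 4.40% to 19.9% of the regions of ab177178 alone and 19.3% to 49.7% of those of the other antibodies alone, beside 15.3% to 29.3% of all. The H3K27me3 libraries made under the same 4 conditions had a peak at 18.2% to 22.3% of the regions of ab177178 alone and 2.14% to 11.5% of those of the other antibodies alone, beside 8.57% to 16.9% of all.

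**Figure D5:**
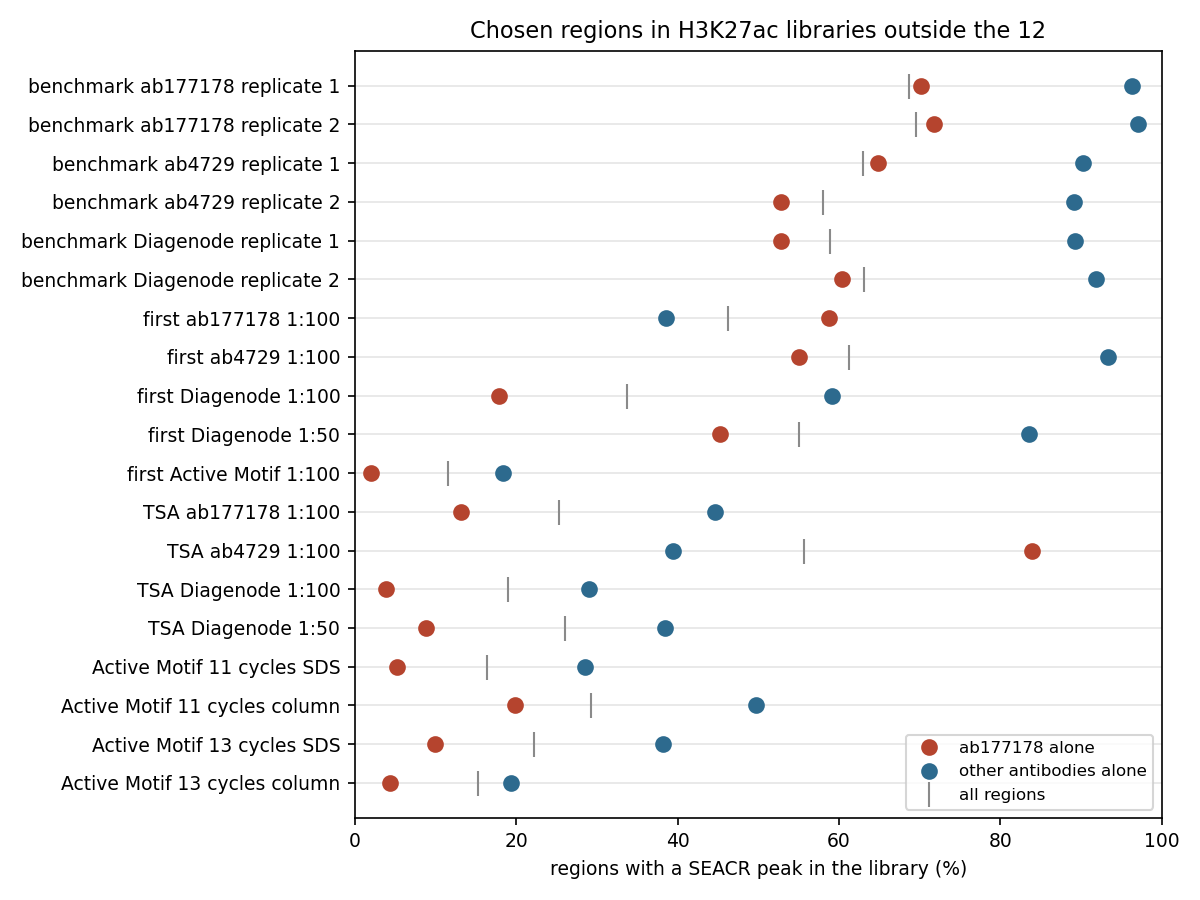
Share of regions with a SEACR peak (horizontal axis, percent) in each H3K27ac library outside the 12, for regions of ab177178 alone (red), of the other antibodies alone (blue) and all regions (grey bar). The benchmark ab177178 libraries, whose lists were the longest of the benchmark H3K27ac lists, held 96.3% and 97.1% of the regions of the other antibodies alone. The TSA ab4729 library, with the longest H3K27ac list of the series, held 83.9% of the regions of ab177178 alone.

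The regions of the other antibodies alone were largely promoters. Of these, 85.7% of the 42 with peaks of ab4729 alone were near a start site, and 52.9% of the 17 with peaks of Diagenode alone. On benchmark H3K27ac lay 97.6% of the 42 and 58.8% of the 17. The first by rank of all 513, and the only one in all 8 libraries, lay at the start of ENSG00000289222 (chr16:2953858-2956289). Its total signal was 2956, 10307, 5061 and 2430 in ab4729 (11 cycles SDS and column, 13 cycles SDS and column) and 5243, 3461, 6822 and 1263 in Diagenode. Among the other 14 first in rank were the shared promoters of TMEM143 and SYNGR4, of ALDH16A1 and PIH1D1, of PAN2 and IL23A and of MCM4 and PRKDC. MCM4 is a subunit of the replicative helicase and PRKDC the catalytic subunit of the DNA-dependent protein kinase. The promoters of CCNB1, a mitotic cyclin, UBE2S, a ubiquitin-conjugating enzyme of mitotic exit, PMVK, an enzyme of the mevalonate pathway, and MRM1, a mitochondrial methyltransferase of ribosomal RNA, were of the same kind. The rest lay in an exon of SDR42E2, in introns of TMEM191C, FKBP5, CDH15 and GP6, and at a noncoding start near FAM53A.

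All of those 15 had a peak in both benchmark ab177178 libraries. At CCNB1 (chr5:68462370-68464132) the total signal was 3173, 4284 and 4472 in ab4729 (11 cycles SDS and column, 13 cycles SDS), with no peak at 13 cycles and column extraction, and 1954, 1996, 4779 and 1926 in Diagenode. The 5 widest lay in an intron of UBAC1 (4563 bp), in an exon of RPL36 and at the starts of TRIP10, MRM1 and HEXIM1. HEXIM1, an inhibitor of the elongation factor P-TEFb, had peaks in 4 libraries, 1 of ab4729 and 3 of Diagenode. At the other end, 6 regions were under 300 bp wide, and all 6 had peaks of Diagenode alone. That of highest mean total signal, near RAMP3 (chr7:45291563-45291746), reached a maximum coverage of 48, 84, 69 and 62 fragments in the 4 Diagenode libraries (11 cycles SDS and column, 13 cycles SDS and column), in lists whose median was 4 to 6 fragments. These narrow regions were singled out after their values had been seen.

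Few genes of the lists had a chosen region at the promoter, as few protein-coding genes had one at all. A region of ab177178 alone overlapped the promoter window, 1.5 kb either side of the start, of 35 of 20136 protein-coding genes (0.174%), and a region of the other antibodies alone that of 473 (2.35%). No gene of any list had a region of ab177178 alone in its promoter window. Of 92 housekeeping genes, 6 (6.52%) had a region of the other antibodies alone, all of them ribosomal protein genes, namely RPL11, RPL18, RPL23A, RPL29, RPS24 and RPS26. So had 8 of 249 zinc finger genes of chromosome 19 (3.21%), among them ZNF320, with a promoter peak in 6 of the 8 libraries, and ZNF77, with 4. Of 26 erythroid and globin genes only ZFPM1, a cofactor of GATA1, did so, with a peak in 3 of 8 libraries. None of the 76 developmental genes under Polycomb, 65 replication-dependent histone genes, 12 megakaryocyte genes, 12 T and B cell genes, 8 liver genes and 8 neuronal genes had a region of either kind.

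The promoters that both sides called checked the cell line. Of 12 erythroid markers, 7 had a promoter peak in at least 3 ab177178 libraries and 6 in at least 6 of the 8 others. GATA1 and TAL1, transcription factors of the erythroid lineage, had peaks in 4 of 4 and 8 of 8. EPOR, the erythropoietin receptor, had none in ab177178 and 1 in the others. The markers of other cell types CD3E, PAX5, ALB, SYN1 and KRT5 had no promoter peak in any of the 12 libraries. Over whole lists, ab177178 called promoter peaks in at least 3 libraries at 13 of 26 erythroid genes, 30 of 65 histone genes and 1 of 76 developmental genes, against 9, 22 and 2 in at least 6 of the other 8 libraries. Over all protein-coding genes this was 13.8% against 9.77%. Among the study's positive controls for quantitative PCR, ZMYND8 had a promoter peak in all 12 libraries and ARHGAP22 and COX4I2 in none, and the negative controls KLHL11 and SIGIRR had none. The study designed its primers on ENCODE peaks, which need not lie in the promoter window. Peaks at the primer sites were not looked up here.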

How the data were processed

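CUT&Tag reads had been trimmed with Trim Galore 0.6.6, aligned to hg19 with Bowtie2 2.2.9, cleared of duplicates with Picard 2.6.0 and limited to fragments under 1000 bp, per the labels and the study's methods. The authors called SEACR peaks in each library on its own (top 0.01 of signal for H3K27ac, 0.1 for H3K27me3), and the deposited lists give each peak's total signal and maximum coverage as signal, with no further normalization. The 12 libraries compared had been downsampled to a shared read depth, so list lengths also depend on unique fragments, and the benchmark libraries had not. The deposited MACS2 lists give −log10 q-values, of which only the peak positions were used here, as an alternative.

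Of 82533 peaks in the 12 lists, 1624 off chromosomes 1 to 22, X and Y were left out. The paper also removed peaks on blacklisted regions of hg19 before its later analyses, a step that was not run here. How many of the chosen regions, some of them in repeats towards centromeres, that step would remove was not tested. Regions were merged at 1 bp overlap, and 2 lists shared at most 0.29% of identical peaks. The members and gene lists were chosen with earlier results of these data known. Start sites came from GENCODE 44 on GRCh37, the build of the files. The 7 library values were compared by exact permutation within conditions, and scripts were checked on simulated lists (Python 3.11.15, numpy 2.4.6, pandas 2.3.3 and scipy 1.17.1). Named regions are the 15 first by number of libraries and mean total signal and the 5 widest of each kind, with promoters of the gene lists. A region's gene is the one that holds its middle, coding and short first, or the nearest coding start. Depth is limited, with a median maximum coverage of 4 to 9 fragments per list. Alternatives were list length, merging, base-level regions, library thresholds, cycles, extraction, benchmark definitions and leaving out each library. Some genes of the lists are not reported here.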

Additional observations from a re-analysis of the deposited data

Results flagged for a closer look

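For 2 library values, ab177178 lay on one side of the mean of the other 2 antibodies in both 11-cycle conditions and on the other side of that mean in both 13-cycle conditions, a difference that was not tested. Median peak width differed from the mean of the other 2 antibodies by -302 bp on average with 11 cycles and by 144 bp with 13 cycles. The share of peaks on benchmark H3K27me3 differed by 10.4 percentage points on average with 11 cycles and by -0.78 percentage points with 13 cycles. No ab177178, ab4729 or Diagenode library stood apart from the other 3 of its antibody in any of the 7 values by Dixon's test at 4 samples.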

How the results depend on the processing

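The count of 341 regions of ab177178 alone was 91 at equal list length, 592 as base-level stretches and 69 in 4 of 4 libraries. As settings chosen after seeing the data, it was 284 without the 2 blocks and 81 without regions that hold a benchmark peak of ab4729 or Diagenode. Within 1 cycle number or extraction the rule was looser, both ab177178 libraries and none of the 4 others, so those counts are not directly comparable with 341. They were 845 with 11 cycles, 775 with 13 cycles, 665 with SDS and 527 with column extraction. The count of 513 for the other antibodies was 1607 at base level and 42 in at least 6 of 8 libraries. By a rule of at least 2 of the 4 others and neither ab177178 library, it was 1383 with 11 cycles and 858 with 13 cycles. That of 42 for ab4729 was 191 at base level. Leaving out 1 library gave 117 to 427 regions for ab177178, 369 to 760 for the other antibodies, 7 to 76 for ab4729 alone and 5 to 26 for Diagenode alone. Without an ab177178 library, where all 3 that remained had to hold a region, the count was 137 (11 cycles SDS), 147 (11 cycles column), 117 (13 cycles SDS) and 150 (13 cycles column). For ab4729 alone it was 8, 12, 7 and 21 in that order without its own library and 76 without the Diagenode library of 13 cycles and SDS, and for Diagenode alone 8, 6, 5 and 10 without its own and 26 without the ab177178 library of 13 cycles and SDS.

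The share of regions of ab177178 alone on benchmark H3K27ac was 86.2% with any SEACR list and 89.1% with MACS2, that on H3K27me3 was 7.39% without the blocks, and that near a start site 9.68% for coding genes and 37% for every transcript start. For the other antibodies the shares were 98.8% with MACS2, 13.3% with either H3K27me3 list, 72.1% for coding genes and 90.3% for every transcript start. In the exact permutation tests, unmatched labels gave an adjusted p of 0.0141 for the share near a start site (-15.4 percentage points) and 0.0283 for that on benchmark H3K27ac (-11.7). Equal list length gave 0.14 (log2) for median width, against -0.10, and 5.54 percentage points for the share without counterpart. With that share given first, as a description, log2 peak number did not pass with ab4729 as the only reference (23 and 0.64), with Diagenode (24.4 and 0.82), with 11 cycles (29.9 and 0.83) or with 13 cycles (17.5 and 0.63), designs that cannot go below an unadjusted p of 0.125 (1 antibody) or 0.111 (1 cycle number). Median width was 0.092 (log2) against Diagenode and 0.21 with 13 cycles, and the H3K27me3 share -0.78 with 13 cycles. Leaving out 1 library gave 0.64 to 0.78 for log2 peak number, 14.6 to 28.3 percentage points for the share without counterpart, -17.6 to -13.5 near a start site and -14.8 to -8.25 on benchmark H3K27ac. Where a value crossed its threshold the cause was not tested. For replicate numbers, which the labels do not give these 12 libraries, no paired analysis was possible because there was nothing to pair by, while the test of the library values was itself matched by cycles and extraction.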
